A study of Homo sapiens with 2 samples.

Results

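The proteasome subunit genes of NK92 cells were taken as the rows annotated as protein-coding whose symbol begins with PSM, a letter from A to G and a number. This gave 50 of the 19672 protein-coding genes in the deposited table, which lists 46427 genes in all. By role they fell into 16 core genes (PSMA and PSMB), 3 immunoproteasome genes (PSMB8, PSMB9 and PSMB10), 21 genes of the regulatory particle (PSMC and PSMD) and 10 activator and assembly genes (PSME, PSMF and PSMG). PSMC3IP and PSME3IP1 carry the name of a subunit that their product binds, and are not subunits themselves; they were kept as the symbols give them and are shown apart.

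NK92 cells are an established line of human natural killer lymphoma, grown here in Artemis-Medium 1 with 2% human serum. The treated sample was exposed for 6 h to PPMX-T003, an antibody against transferrin receptor 1, at 10 µg/mL. The untreated sample is a parallel dish from the same 18 h culture, to which no antibody was given over those 6 h. Polyadenylated RNA was sequenced as 1 library per condition, with totals of 46766416 counts for the untreated and 43178462 counts for the PPMX-T003 library. With 1 library per condition there is no replicate check and no p-value, so every difference given here is one between these 2 libraries and not between the conditions.

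The 26S proteasome degrades proteins that carry a chain of ubiquitin. Its core is a barrel of stacked rings of alpha and beta subunits, whose inner beta subunits cut the protein, and its regulatory particle binds the chain, unfolds the protein and feeds it into the barrel. In lymphocytes and in cells exposed to interferon-γ, the cutting subunits PSMB5, PSMB6 and PSMB7 are largely replaced by PSMB8, PSMB9 and PSMB10, which changes the peptides offered to MHC class I molecules.

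The label of the cells was checked against marker genes first. All 9 NK cell markers had more than 3 reads in both libraries, with a summed level of 3854 CPM (counts scaled to a common library total) in the untreated and 4279 CPM in the PPMX-T003 library, most of it from IL2RB and NKG7. The T cell genes CD3D, CD3G, CD8B and CD5, the B cell gene MS4A1, and the erythroid genes HBB and HBA1 had no read in either library. Of the 6 T cell markers, TRAC alone had more than 3 reads in both libraries, with 1501 reads in the untreated and 1312 in the PPMX-T003 library. The 5 myeloid markers summed to 4.87 CPM untreated and 6.93 CPM treated, most of it from CD68, and the 4 B cell markers to 3.91 and 2.09 CPM, most of it from PAX5. The 2 fibroblast markers summed to 0.28 and 0.16 CPM, with COL1A1 at 0, and the 2 epithelial markers to 0.043 and 0 CPM, with EPCAM at 0.

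Of the 50 genes, 48 were read in both libraries, the least of them with 1285 reads, so that each passed the minimum of 20 counts over both libraries that 13665 genes of the table passed. PSMA8, the alpha subunit of the testis, and PSMB11, the beta subunit of the thymus, had 0 reads in both libraries. A count of 0 allows up to 0.064 CPM in the untreated and 0.070 CPM in the PPMX-T003 library. Together the 48 genes took 404313 reads of the untreated library, or 0.864% (95% Clopper-Pearson interval 0.862 to 0.867). In the PPMX-T003 library they took 381984 reads, or 0.885% (0.882 to 0.888). These intervals, and all others given for these libraries, cover counting error only.

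Levels between genes were compared per length, on the deposited TPM (reads per length of transcript, scaled to a common total). PSMA7 was the highest member at 1029 TPM in the untreated and 1089 TPM in the PPMX-T003 library. PSME2 followed at 973 and 959 TPM. The lowest was PSME4, at 37 TPM untreated and 30 TPM treated. In the alpha ring, where each barrel holds equal numbers of all 7 subunits, transcript levels were far from equal: the highest was 7.10 times the lowest in the untreated and 7.78 times in the PPMX-T003 library. The plot of TPM by role shows such a spread among the beta, ATPase and activator genes as well, wider than the difference between the libraries. The median member of the barrel, immunoproteasome genes included, stood at 320 TPM untreated and 315 TPM treated. The median ATPase or non-ATPase subunit of the regulatory particle stood at 243 and 220 TPM. The chaperones that assemble these parts were lower, with medians of 67 and 71.5 TPM for those of the barrel and 49 and 44 TPM for those of the regulatory particle.

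**Figure D1:**
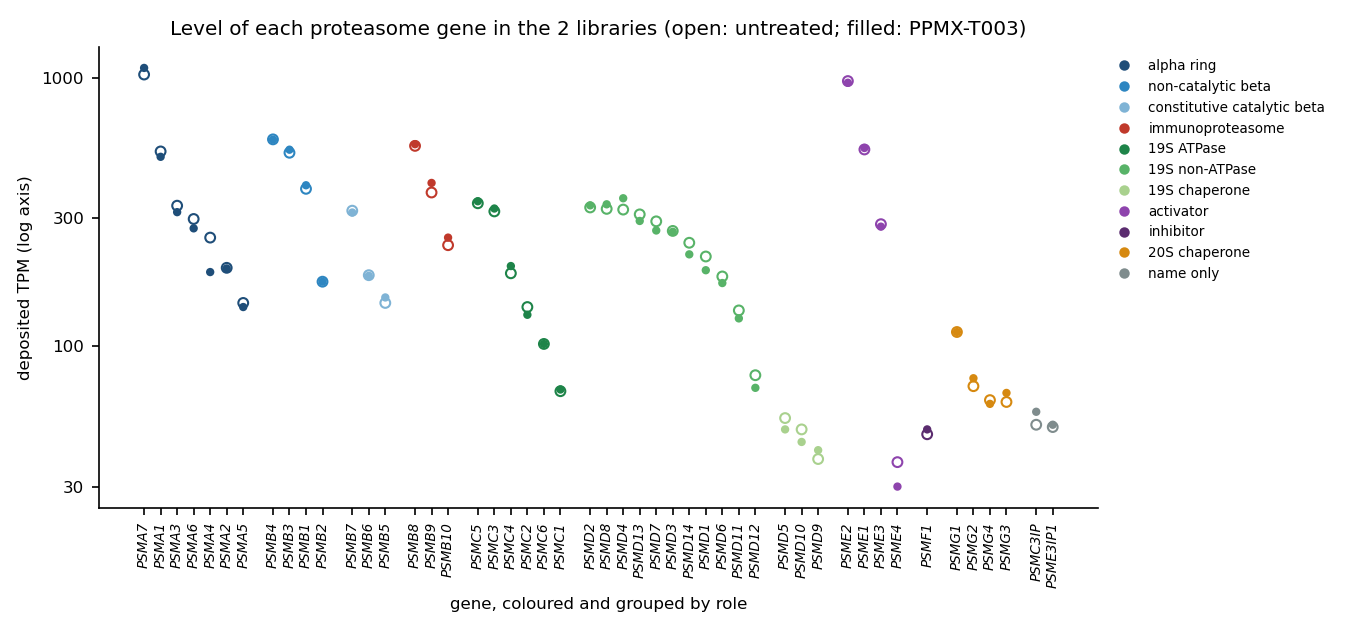
Deposited TPM (log axis) of the 48 proteasome genes with reads, grouped and coloured by role; open circles are the untreated and filled circles the PPMX-T003 library. PSME4 lies lowest, and PSMA7 and PSME2 lie highest, in both libraries.

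Change was measured as the log2 fold change of the PPMX-T003 against the untreated library, on CPM after TMM scaling, which matches the libraries by a trimmed mean of gene ratios, with a prior count of 2. No member differed by 2-fold, a size reached on the higher side by 1.27% and on the lower side by 1.38% of all genes tested. Of the genes with at least 1000 counts, as all 48 members have, 0.0359% and 0.0239% reached it, so that its absence among the members does not set them apart. By the smaller threshold of 1.1-fold, 6 of the 48 were higher and 1 lower. Of all genes tested, 24.0% lay past 1.1-fold on the higher and 25.3% on the lower side, and of the genes with at least 1000 counts 15.2% and 20.1%. The members' shares were 12.5% higher and 2.08% lower, of which the first is near that of genes with at least 1000 counts. With upper quartile scaling the counts of members were 9 and 1. The 6 were PSMC3IP, PSMD4, PSMB9, PSMG3, PSMD9 and PSMB10, and the lower gene was PSME4. With the trend of the fold changes with GC content and transcript length removed by a fit, they were 2 (PSMC3IP and PSMG2) and 0, and on the deposited TPM they were 2 and 6.

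The 48 members had a median log2 fold change of 0.049, against -0.0022 over all genes tested, with 32 members higher and 16 lower. The interval of 23 members lay above 0, that of 9 below 0, and that of 16 held 0. That is 47.9% of members above and 18.8% below, against 21.8% and 23.9% of all genes tested, and 27.7% and 32.2% of genes with at least 1000 counts. Their summed reads gave a log2 ratio of 0.035 (95% counting interval 0.029 to 0.042). The side of 0 depends on the scale. On the deposited TPM the median was -0.0012 with 21 members higher, 24 lower and 3 equal, and the summed level gave -0.0056. The median was above 0 with the other 3 scalings of the reads. With the trend of GC content and length removed the median was 0.022, against -0.0064 over genes with at least 1000 counts. With each gene's longest transcript in that fit these medians were 0.0018 and -0.012. Genes with at least 1000 counts as a whole lay lower on the TPM, with a median of -0.055, 29.6% higher and 58.8% lower, against a median of -0.010 on the reads. The members' median thus stood above that of these genes on either scale, and the TPM values given below for roles and lists share this lower background.

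**Figure D2:**
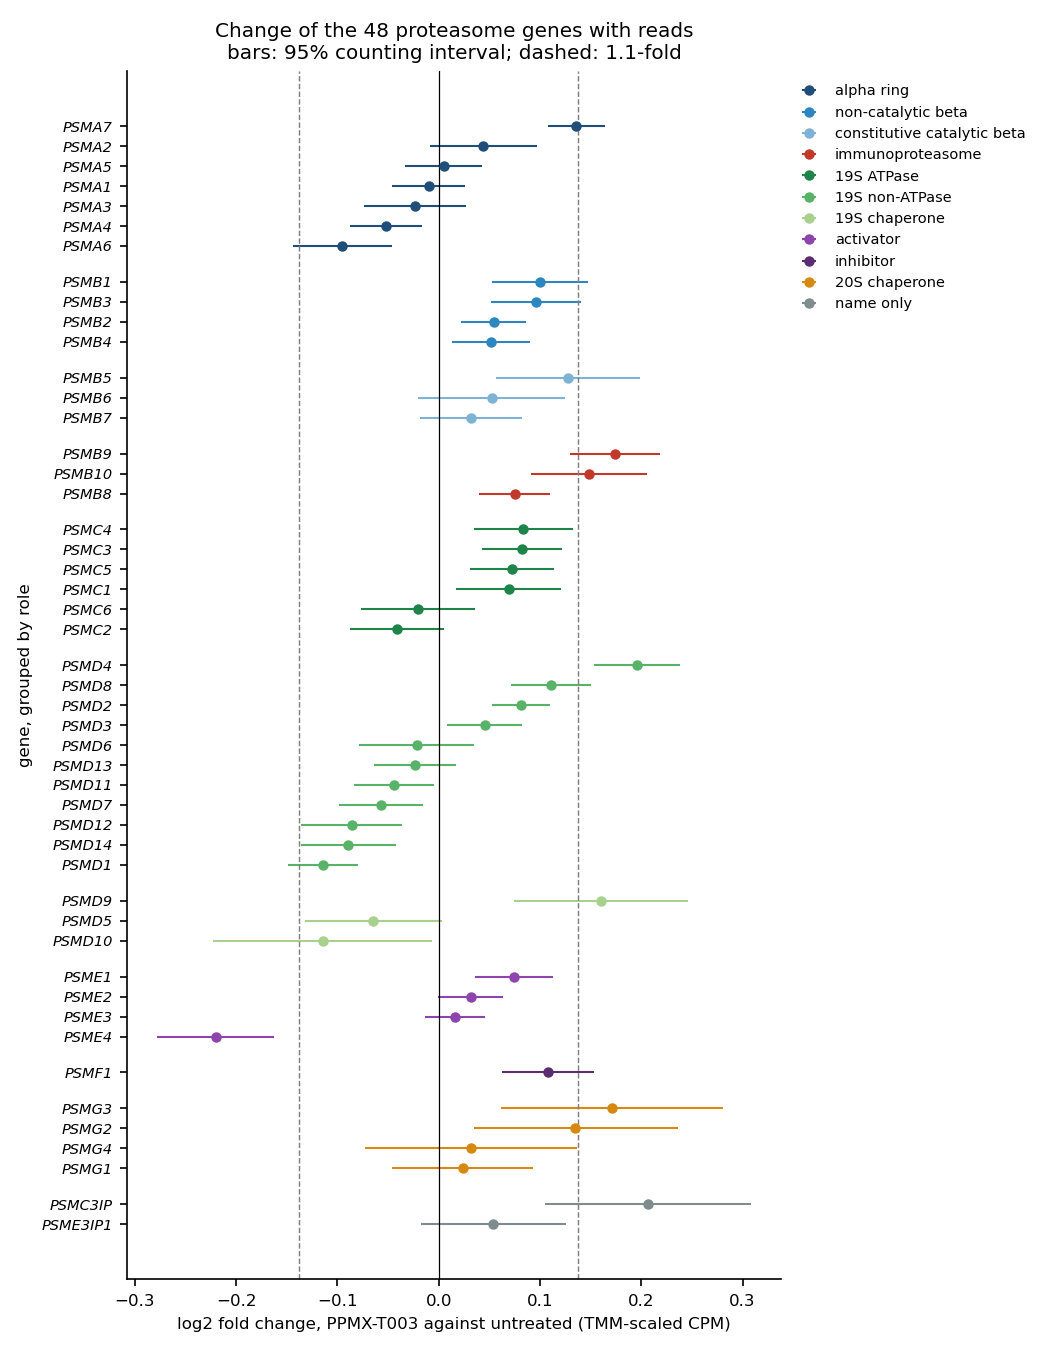
Log2 fold change of each proteasome gene, PPMX-T003 against untreated, grouped by role; bars are 95% counting intervals, and dashed lines mark 1.1-fold. On the reads, the immunoproteasome genes, the non-catalytic beta genes and PSMF1 have whole intervals above 0, PSME4 lies lowest at -0.22, and the other roles hold genes on both sides of 0 or with intervals that reach it.

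The 3 immunoproteasome genes were all higher in the PPMX-T003 library, with a median log2 fold change of 0.15, and each interval lay above 0. PSMB9, the interferon-inducible subunit that takes the place of PSMB6, had 7927 reads in the untreated and 8246 in the PPMX-T003 library, a log2 fold change of 0.17 (0.13 to 0.22). PSMB10, which replaces PSMB7, had 4847 and 4953 reads and a log2 fold change of 0.15 (0.091 to 0.21). PSMB8, which replaces PSMB5, had 13303 and 12922 reads and a log2 fold change of 0.075 (0.040 to 0.11). All 3 stayed above 0 with each scaling and on the deposited TPM, where the median was 0.093. With the trend of base composition and length removed it was 0.021, and -0.014 when each gene's longest transcript was used for that trend. In the first of these fits PSMB9 lay at 0.082, above 0 by more than its counting error, while PSMB10 at 0.021 and PSMB8 at 0.0095 did not, and none reached 1.1-fold. In the second PSMB9 at 0.029 and PSMB10 at -0.014 lay within counting error of 0. PSMB8 lay at -0.042 there, below 0 by more than its counting error. PSMB9 shares exon sequence with the non-coding gene PSMB8-AS1 (1272 and 1144 reads) on its own strand, PSMB10 with another annotated gene, and PSMB8 with PSMB8-AS1 on the opposite strand. Whether the counting used strand is not stated, so that the reads of none of the 3 can be assigned with certainty.

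Of the constitutive partners, PSMB6 and PSMB7 had intervals wholly below those of the genes that replace them, and the interval of PSMB5 overlapped that of PSMB8. PSMB5 had 3173 reads untreated and 3196 treated, a log2 fold change of 0.13 (0.056 to 0.20). PSMB6, with 3158 and 3019 reads, gave 0.052 (-0.020 to 0.12). PSMB7, with 6559 and 6183 reads, gave 0.032 (-0.019 to 0.082). Only the interval of PSMB5, which carries the chymotrypsin-like activity that proteasome inhibitors block, lay above 0 among these 3. With the trend removed PSMB5 lay at 0.079, PSMB6 at -0.023 and PSMB7 at 0.0082, and on the deposited TPM their median was -0.0078. With each gene's longest transcript in that fit PSMB5 lay at 0.033. PSMB6 at -0.091 and PSMB7 at -0.0665 then lay below 0 by more than counting error.

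The pairs were also compared inside each library, where no scaling between libraries is needed. PSMB8 took 80.7% of the reads of its pair with PSMB5 in the untreated (95% Clopper-Pearson interval 80.1 to 81.3) and 80.2% in the PPMX-T003 library (79.6 to 80.8). PSMB9 took 71.5% of its pair with PSMB6 untreated (70.7 to 72.3) and 73.2% treated (72.4 to 74.0). PSMB10 took 42.5% of its pair with PSMB7 untreated (41.6 to 43.4) and 44.5% treated (43.6 to 45.4). The immunoproteasome genes therefore supplied most reads at the chymotrypsin-like and caspase-like positions and the smaller part at the trypsin-like position, in both libraries. Over all 3 pairs their share was 66.9% untreated (66.5 to 67.4) and 67.8% treated (67.3 to 68.3). On the deposited TPM, which takes length into account, it was 64.3% and 65.3%.

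Set against its partner, PSMB9 differed between the libraries by 0.12 more on the log2 scale than PSMB6 (95% counting interval 0.037 to 0.21). PSMB10 differed by 0.12 more than PSMB7 (0.040 to 0.19). For PSMB8 against PSMB5 the value was -0.052 (-0.13 to 0.027), an interval that holds 0. On the reads as counted, the ratio of immunoproteasome to constitutive genes was thus higher in the PPMX-T003 library at 2 of the 3 catalytic positions, beyond counting error, and not detectably different at the third. GC content is higher in the immunoproteasome gene of each pair: 54.9% for PSMB8 and 51.9% for PSMB5, 56.1% for PSMB9 and 54.7% for PSMB6, and 60.6% for PSMB10 and 48.7% for PSMB7. With the trend of GC content and length removed, the difference of PSMB10 from PSMB7 was 0.013 (-0.063 to 0.089), an interval that holds 0. With each gene's longest transcript in that fit it was 0.053 (-0.024 to 0.13), which also holds 0, and on the deposited TPM it was 0.12. The difference of PSMB9 from PSMB6 was 0.11 (0.021 to 0.19) with the first of these fits and 0.12 (0.035 to 0.20) with the second, still above 0, and that of PSMB8 from PSMB5 was -0.070 (-0.15 to 0.0093) and -0.075 (-0.15 to 0.0035). After removal by either fit the ratio was therefore higher beyond counting error at the caspase-like position alone.

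The genes of PSMB8 and PSMB9 are neighbours in the MHC region, 9.51 kb apart on chromosome 6 (chr6:32840717-32844679 and chr6:32854192-32859851, GRCh38.p14), with TAP1 between them. TAP1, a subunit of the peptide transporter, had 17176 reads untreated and 16014 treated, a log2 fold change of 0.016 (-0.015 to 0.047), an estimate below those of both neighbours with an interval that overlaps that of PSMB8. PSMB10 lies on chromosome 16. The members as a whole are spread over 17 chromosomes, with 8 each on chromosomes 14 and 17, and only 3 pairs lie within 100 kb of each other. Apart from PSMB8 and PSMB9 these are PSMB5 with the silent PSMB11, and PSME1 with PSME2.

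Upstream sequence was read from the RefSeq promoter table (GRCh38.p14), which matched 44 of the 50 members. The 250 bases before each listed start were searched on both strands for 4 motifs, as letters only. The antioxidant response element (TGACNNNGC), to which NRF1 and NRF2 bind, was in 13 of the 44 members, or 29.5%, and in 13.2% of all 27305 genes of the table. The CCAAT box (CCAAT), the letters of the NF-Y site, was in 21 members, or 47.7%, and in 37.0% of all genes. The gamma-activated site (TTCNNNGAA), known from interferon-γ responses, was in 7 members, or 15.9%, and in 8.09% of all genes. The interferon response element, written as TTTC, 2 bases of any kind and TTTC, was in 5 members, or 11.4%, and in 3.71% of all genes. The sets compared are unlike. The members are protein-coding and nearly all were read, while the 27305 genes were not limited to genes read in these cells. They also outnumber the 19672 protein-coding genes listed for these libraries. The 27305 genes had 35116 listed starts, and a gene counted if any of its starts matched. A match is a description and shows no binding.

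The changes of members with and without each motif overlapped. The median log2 fold change was 0.046 over the 13 members with the antioxidant response element and 0.032 over the 29 read members without it. The members with it run from the lowest, PSME4 at -0.22, to PSMB9 at 0.17. For the interferon response element the medians were 0.032 with and 0.044 without, and for the gamma-activated site 0.060 with and 0.028 without. With the CCAAT box the median was 0.034, and 0.042 without it.

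Windows are printed for 6 members whose match lies outside all exons of GENCODE release 29, to show the letters at genes from both sides of 0. PSMD12, chosen for this after its value was seen, had 7082 reads untreated and 6152 treated. Its log2 fold change was -0.086 (-0.14 to -0.037), and 0.048 with the trend of base composition and length removed. Capitals mark the match, which in PSMB9 and PSMA4 reads as its reverse complement. The antioxidant response element is shown for PSMB9 (chr6:32854023-32854073, plus strand), PSMD9 (chr12:121888667-121888717, plus strand), PSMB3 (chr17:38752616-38752666, plus strand), PSME1 (chr14:24136087-24136137, plus strand) and PSMD12 (chr17:67366713-67366763, minus strand). The interferon response element is shown for PSMA4 (chr15:78540155-78540195, plus strand).
PSMB9: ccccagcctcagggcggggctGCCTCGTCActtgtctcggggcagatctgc
PSMD9: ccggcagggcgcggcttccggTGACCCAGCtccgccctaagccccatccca
PSMB3: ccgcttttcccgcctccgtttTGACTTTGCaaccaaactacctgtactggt
PSME1: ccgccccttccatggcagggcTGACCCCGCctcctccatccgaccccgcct
PSMD12: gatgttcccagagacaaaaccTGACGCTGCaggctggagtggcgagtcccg
PSMA4: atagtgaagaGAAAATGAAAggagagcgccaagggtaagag

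PSMA genes form the outer rings of the barrel and the gate through which proteins enter. Of the 7 that were read, 3 were higher and 4 lower, with a median log2 fold change of -0.010. The median was 0.0021 with upper quartile scaling and 0.039 with the trend of base composition and length removed. On the deposited TPM it was -0.0665, with 1 higher and 6 lower, near the -0.055 of genes with at least 1000 counts. PSMA7 had 20636 reads in the untreated and 20907 in the PPMX-T003 library, a log2 fold change of 0.14 (0.11 to 0.16). PSMA2, with 5872 and 5582 reads, gave 0.044 (-0.0091 to 0.097). The lowest 2 were PSMA6 and PSMA4. PSMA6 had 7275 reads untreated and 6279 treated, a log2 fold change of -0.095 (-0.14 to -0.046). PSMA4 had 13493 and 12000 reads and gave -0.052 (-0.088 to -0.017). Of the 7 genes of the ring, 1 thus had an interval above 0 and 2 below it, or 14.3% and 28.6%. Of genes with at least 1000 counts, 27.7% and 32.2% had one, so that this does not set the ring apart. PSMA6 shares exon sequence with another annotated gene. PSMA7 at 0.089 and PSMA6 at -0.075 still differed in opposite directions beyond counting error once the trend was removed. PSMA2 lay at 0.11 and PSMA4 at -0.0073 there. With each gene's longest transcript in that fit PSMA7 lay at 0.014, within its counting error. PSMA2 then lay at 0.054, PSMA4 at 0.020 and PSMA6 at -0.15.

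PSMA4 also stood apart between the 2 deposited measures, a feature chosen after its values were seen. Its TPM was 254 in the untreated and 189 in the PPMX-T003 library, and the log2 change of its TPM minus that of its reads was -0.37. Over the 6112 genes with at least 20 TPM in both libraries this difference had a median of -0.054, with 95% of genes between -0.13 and 0.038. Only 9 of these genes, or 0.147%, lay as low as PSMA4. The next lowest member lay at -0.082 and the highest at 0.021. The cause was not tested, and no values of single transcripts were analysed here.

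**Figure D3:**
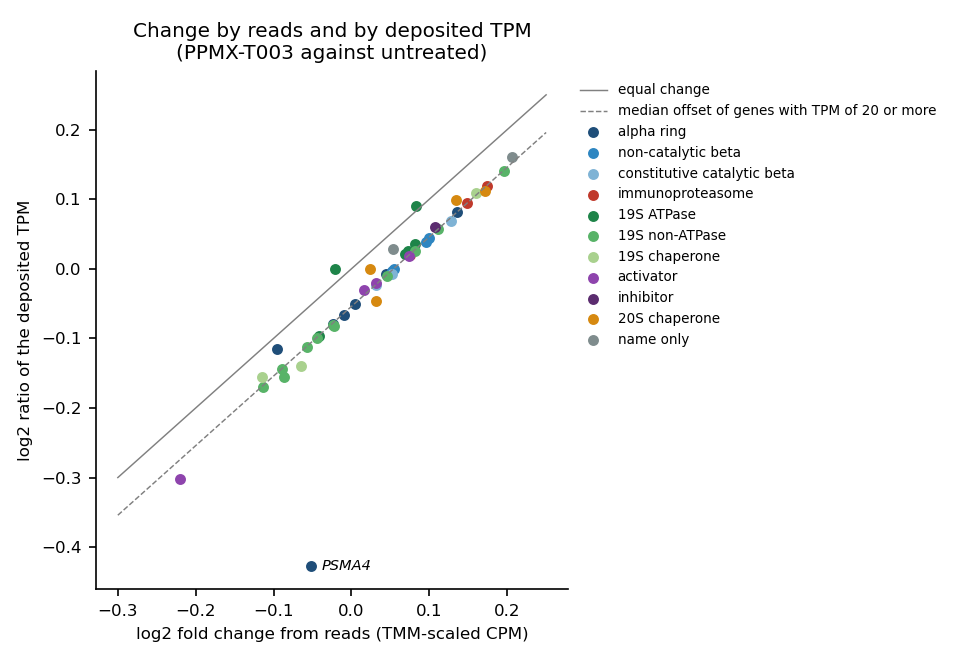
Log2 ratio of the deposited TPM against log2 fold change from reads for each proteasome gene, PPMX-T003 against untreated; the solid line marks equal change and the dashed line the median offset of genes with at least 20 TPM. PSMA4 lies farthest from equal change, at a difference of -0.37, and the next lowest member at -0.082.

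The 4 non-catalytic beta genes, whose products build the inner rings without cutting, were all higher on the reads, each with an interval above 0 and a median log2 fold change of 0.075. PSMB1 had 7161 reads untreated and 7076 treated, a log2 fold change of 0.10 (0.052 to 0.15). PSMB3 had 8269 and 8149 reads and gave 0.096 (0.052 to 0.14). PSMB2, with 16011 and 15330 reads, gave 0.054 (0.022 to 0.086), and PSMB4, with 11292 and 10792 reads, gave 0.052 (0.013 to 0.090). On the deposited TPM 2 of them were higher, PSMB2 was equal and PSMB4 was at -0.0024, with a median of 0.019. Removal of the trend gave a median of 0.048, with PSMB3 at 0.0099, PSMB4 at 0.0079 and PSMB2 at 0.13. With each gene's longest transcript in that fit the median was -0.019. PSMB3 then lay at -0.048 and PSMB4 at -0.062, both below 0 by more than counting error, PSMB1 at 0.010 and PSMB2 at 0.11. None of these 4 reached 1.1-fold on the reads. Over the whole core, 14 genes were read and the median log2 fold change was 0.048, with 10 higher and 4 lower, and -0.0076 on the deposited TPM.

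The regulatory particle as a whole, 21 genes with PSMC3IP, had a median log2 fold change of -0.021, with 10 genes higher and 11 lower, while their mean was 0.020. The median was 0.0091 with the trend of base composition and length removed and -0.011 on the deposited TPM. The 6 PSMC genes encode the ATPases that unfold the protein. They had a median of 0.071, with 4 higher and 2 lower. PSMC3 had 10517 reads untreated and 10265 treated, a log2 fold change of 0.082 (0.043 to 0.12). PSMC4 had 6790 and 6634 reads and gave 0.083 (0.035 to 0.13). PSMC2, with 7902 and 7081 reads, gave -0.041 (-0.088 to 0.0052), and PSMC6, with 5406 and 4914 reads, gave -0.021 (-0.077 to 0.035). The intervals of both lower ATPases held 0. The median of the 6 was 0.023 on the deposited TPM and 0.024 with the trend removed, where all 6 were above 0, PSMC6 at 0.079 and PSMC3 at 0.0091 among them. With each gene's longest transcript in that fit the median was 0.0105. PSMC3 at -0.031 and PSMC4 at -0.021 were then among those below 0, and PSMC6 lay at 0.042.

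Among the 11 non-ATPase subunits, which include receptors for ubiquitin and the deubiquitinase, the median was -0.024, with 4 higher and 7 lower. It was -0.081 on the deposited TPM, with 3 higher and 8 lower, and -0.012 with upper quartile scaling. PSMD4, a receptor for ubiquitin chains, was the member with the interval farthest above 0: it had 8822 reads untreated and 9315 treated, a log2 fold change of 0.20 (0.15 to 0.24). It was the only member whose whole interval lay past 1.1-fold on the higher side. PSMD8 had 10429 and 10385 reads and gave 0.11 (0.072 to 0.15). PSMD1, the scaffold of the base, had 14931 reads untreated and 12720 treated, a log2 fold change of -0.11 (-0.15 to -0.080). PSMD14, the deubiquitinase of the lid, had 7941 and 6883 reads and gave -0.089 (-0.14 to -0.042). Of these 11 subunits, 4 had an interval above 0 and 5 below it, or 36.4% and 45.5%. Of genes with at least 1000 counts, 27.7% and 32.2% had one, so that lying on both sides of 0 does not set these subunits apart. After removal of the trend PSMD4 lay at 0.13, short of 1.1-fold, PSMD8 at 0.032 and PSMD1 at -0.044, while PSMD14 stayed at -0.086. With each gene's longest transcript in that fit PSMD4 lay at 0.095, PSMD1 at -0.079 and PSMD14 at -0.10. PSMD8 then lay at 0.0073, within its counting error.

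The chaperones of the regulatory particle, PSMD5, PSMD9 and PSMD10, assemble its ATPases and leave the finished complex. PSMD9 had 2178 reads untreated and 2244 treated, a log2 fold change of 0.16 (0.074 to 0.25), and it shares exon sequence with CFAP251. PSMD10, also called gankyrin, had 1509 and 1285 reads and gave -0.11 (-0.22 to -0.0065). PSMD5 had 3768 and 3322 reads and gave -0.065 (-0.13 to 0.0030), which was -0.14 on the deposited TPM and -0.032 with the trend removed. PSMC3IP, a recombination factor outside the proteasome, had the highest estimate of the 48, with 1525 reads untreated and 1623 treated, a log2 fold change of 0.21 (0.11 to 0.31). The chaperones thus lay on both sides of 0, with 1 interval above it, 1 below it and 1 that held it. Of genes with at least 1000 counts, 27.7% had an interval above 0 and 32.2% below it.

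Of the activators, which dock on the barrel in place of the regulatory particle, PSME4 lay apart from the others on the reads. PSME4 (PA200, chr2, Entrez gene 23198) had 5470 reads in the untreated and 4329 in the PPMX-T003 library, a log2 fold change of -0.22 (-0.28 to -0.16). On the reads it was the lowest of all 48 members, and its whole interval lay past 1.1-fold on the lower side. On the deposited TPM PSME4 lay at -0.29, above PSMA4 at -0.42. PSME1 and PSME2 form the PA28 ring of the cytoplasm that interferon-γ induces. PSME1 had 10882 and 10565 reads and a log2 fold change of 0.074 (0.036 to 0.11). PSME2 had 16323 and 15384 reads and gave 0.032 (-0.00028 to 0.063). PSME3, the nuclear activator, had 19292 and 17986 reads and gave 0.016 (-0.014 to 0.045). PSME4 has the longest transcripts of these 4, with a median of 7099 bases, and a GC content of 41.5%. With the trend of both removed its log2 fold change was -0.0865, short of 1.1-fold, while PSME1 lay at 0.026 and PSME2 at -0.015. PSMD10 then lay lower than PSME4, at -0.10. With each gene's longest transcript in that fit PSME4 lay at -0.11, PSME2 at -0.10 and PSME1 at -0.039. The median of the 4 was 0.024 on the reads and -0.026 on the deposited TPM.

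PSMF1, the inhibitor PI31, had 7913 reads untreated and 7862 treated, a log2 fold change of 0.11 (0.062 to 0.15). The chaperones of the barrel, PSMG1 to PSMG4, were all higher by their estimates from reads, with a median of 0.083 (0.048 on the deposited TPM, where PSMG1 was equal and PSMG4 lower). PSMG3 had 1335 and 1386 reads and gave 0.17 (0.062 to 0.28). PSMG2 had 1594 and 1614 reads and gave 0.13 (0.034 to 0.24). PSMG4, with 1534 and 1446 reads, gave 0.032 (-0.073 to 0.14), and PSMG1, with 3451 and 3235 reads, gave 0.024 (-0.046 to 0.093). With the trend of base composition and length removed, PSMG2 lay at 0.19, PSMG3 at 0.066, PSMG1 at 0.040 and PSMG4 at -0.026. Only PSMG2 then lay above 0 by more than counting error. With each gene's longest transcript in that fit the median of the 4 was 0.027, and each lay within its counting error of 0. PSME3IP1 had 3224 and 3086 reads and gave 0.054 (-0.018 to 0.13). The 10 activator and assembly genes together had a median of 0.043, with 9 higher and 1 lower, and 0.0093 with 5 higher and 4 lower on the deposited TPM.

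The change of the members followed the GC content of their transcripts. Of the 24 members above their median GC content of 49.5%, 23 were higher and 1 was lower in the PPMX-T003 library. Of the 24 at or below it, 9 were higher and 15 lower. The medians were 0.083 and -0.023, and 0.024 and 0.0081 once a fit of the fold changes of 10014 genes on GC content and length was removed. Across the 48 genes, which come from the same 2 libraries and are not independent replicates, Pearson's r of log2 fold change with GC content was 0.64 and Spearman's rho 0.68. Across the 8201 genes with at least 1000 counts and a known GC content they were 0.49 and 0.53. The plot of change against GC content shows members above and below the line of all genes. A difference in base composition between the 2 libraries and the treatment cannot be told apart with 1 library per condition.

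**Figure D4:**
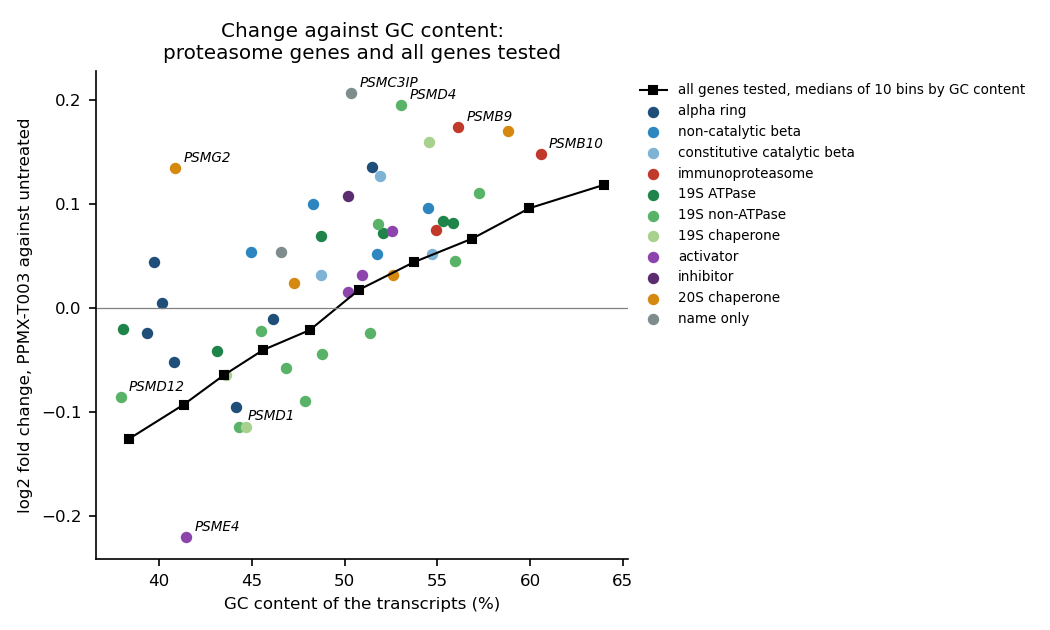
Log2 fold change of the proteasome genes against the GC content of their transcripts, coloured by role; the black line joins the medians of all genes tested in 10 bins by GC content. Members of higher GC content lie higher, as the line does, PSME4 lies below it, and PSMC3IP, PSMD4 and PSMG2 lie above it.

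Other genes of the pathway were described from 4 lists. Among 15 proteasome partners, such as assembly factors, shuttles and associated ligases, 6 were higher and 9 lower, with a median of -0.018. Past 1.1-fold higher was 1, or 6.67%, against 24.0% of all genes tested and 15.2% of genes with at least 1000 counts. The median was 0.018 with the trend of base composition and length removed and -0.060 on the deposited TPM. ZFAND2A, a stress-inducible proteasome adaptor, had 825 reads untreated and 912 treated, a log2 fold change of 0.26 (0.12 to 0.40). ADRM1, a ubiquitin receptor, had 10624 and 10545 reads and gave 0.11 (0.067 to 0.15), and -0.036 with the trend removed. AKIRIN2, the factor that brings proteasomes into the nucleus, had 2496 and 2487 reads and gave 0.11 (0.031 to 0.19). By the interval bound nearest 0, the lowest were ligase UBE3A, deubiquitinase USP14 and scaffold ECPAS. UBE3A gave -0.13 (10813 and 9127 reads, -0.17 to -0.087), USP14 -0.086 (6537 and 5678 reads, -0.14 to -0.035) and ECPAS -0.088 (5213 and 4521 reads, -0.15 to -0.031). These 3 lay nearer 0 once the trend was removed, at -0.017 for UBE3A, -0.036 for USP14 and -0.030 for ECPAS.

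Among 14 regulators of proteasome genes, 8 were higher and 6 lower, with a median of 0.026. Past 1.1-fold, 2 were higher and 3 lower, or 14.3% and 21.4%, against 24.0% and 25.3% of all genes tested. Of the genes with at least 1000 counts, as all of the list but MAFF have, 15.2% and 20.1% lay past it. The median was -0.018 on the deposited TPM and -0.032 with the trend of base composition and length removed. NFE2L1, which encodes NRF1, the factor that raises proteasome genes when proteasomes fail, had 11116 reads untreated and 10499 treated, a log2 fold change of 0.035 (-0.0039 to 0.073). DDI2, the protease that activates NRF1, had 9332 and 7083 reads and gave -0.28 (-0.33 to -0.24). NGLY1, which edits NRF1, had 1803 and 1694 reads and gave 0.027 (-0.069 to 0.12). On the reads the protease of this route was therefore lower beyond counting error, and the factor itself was not detectably different. Removal of the trend moved DDI2, whose transcripts have a median of 10625 bases, to -0.14. It moved NFE2L1, with a median of 583 bases, to -0.063, so that both then lay below 0 by more than counting error. These values depend on the length taken for each gene. With each gene's longest transcript in that fit the median of the list was -0.000337, and values of its single genes are not reported here.

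NFE2L2, which encodes NRF2, had 3683 and 3462 reads and gave 0.028 (-0.040 to 0.095). KEAP1, the adaptor that has NRF2 degraded, had 7870 and 8185 reads and gave 0.17 (0.13 to 0.22). Of the small MAF partners, MAFG had 1398 and 1085 reads and gave -0.25 (-0.36 to -0.13). MAFK, with 2069 and 1941 reads, gave 0.025 (-0.065 to 0.11), and MAFF, with 48 and 35 reads, gave -0.32 with an interval from -1.01 to 0.32. Among the NF-Y subunits, NFYC had 2672 and 2673 reads and gave 0.12 (0.040 to 0.20). NFYA at -0.050 (3811 and 3395 reads, -0.12 to 0.017) and NFYB at 0.064 (2197 and 2117 reads, -0.023 to 0.15) had intervals that held 0. With the trend removed KEAP1 lay at 0.042, short of 1.1-fold, MAFK at -0.10, NFYC at 0.076 and NFYB at 0.14, and MAFG stayed low at -0.32.

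Of the interferon branch, which drives the immunoproteasome genes, IRF1 had 8716 reads untreated and 9227 treated, a log2 fold change of 0.20 (0.16 to 0.24). NLRC5, the transactivator of MHC class I genes, had 3456 and 3166 reads and gave -0.0094 (-0.079 to 0.061). IRF1 was thus higher beyond counting error, and NLRC5 was not detectably different. Once the trend was removed IRF1 lay at 0.11, short of 1.1-fold, and NLRC5 at -0.066.

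Of 18 genes for ubiquitin and delivery, 17 were read, and DDI1 had no read. Their median was 0.027, with 9 higher and 8 lower, 4 past 1.1-fold higher and 1 lower. These are 23.5% and 5.88%, against 24.0% and 25.3% of all genes tested. Of the genes with at least 1000 counts, as all 17 have, 15.2% and 20.1% lay past it. The median was -0.016 on the deposited TPM and -0.0086 with the trend of base composition and length removed. UBB, a gene for ubiquitin itself, was on the higher side, with 17689 reads untreated and 18188 treated, a log2 fold change of 0.16 (0.13 to 0.19). The lowest was UBA6, an activating enzyme, with 2447 and 1960 reads and a log2 fold change of -0.20 (-0.29 to -0.12). RAD23B, a shuttle, gave -0.058 (18339 and 16247 reads, -0.088 to -0.027), and UBE2D3, a conjugating enzyme, gave -0.054 (16050 and 14255 reads, -0.087 to -0.021). Once the trend was removed, UBB lay at 0.11 and UBA6 at -0.090, both short of 1.1-fold, RAD23B at -0.000625 and UBE2D3 at -0.023.

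Of 9 genes that turn proteasome products into MHC class I ligands, 3 were higher and 6 lower, with a median of -0.048. Past 1.1-fold lower were 3, or 33.3%, against 25.3% of all genes tested and 20.1% of genes with at least 1000 counts. The median was -0.049 with the trend of base composition and length removed and -0.11 on the deposited TPM, and 1 was higher and 8 lower under either. The 3 past 1.1-fold trim peptides. ERAP1 had 7325 reads untreated and 5894 treated, a log2 fold change of -0.20 (-0.25 to -0.15). ERAP2 had 27477 and 22794 reads and gave -0.15 (-0.18 to -0.13), and TPP2 had 7341 and 6006 reads and gave -0.17 (-0.22 to -0.12). On the higher side were THOP1, which destroys peptides, at 0.11 (5750 and 5734 reads, 0.060 to 0.17), and TAPBP, which loads them, at 0.053 (10053 and 9616 reads, 0.013 to 0.093). Both lay below 0 with the trend removed, at -0.041 and -0.074, where ERAP1 was at -0.23, and ERAP2 at -0.089 and TPP2 at -0.049 were short of 1.1-fold. The length taken for ERAP1 in that fit was a median of 607.5 bases, and its value with the longest transcript is not reported here.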

How the data were processed

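RNA of 1 untreated and 1 PPMX-T003 dish of NK92 cells was analysed. According to their processing notes, the authors trimmed reads with Trimmomatic 0.38, aligned them to hg38 with HISAT2 2.2.0 and counted them with StringTie 2.1.3b; the authors also named edgeR 3.17. The deposited table holds whole read counts per gene and TPM rounded by the authors to whole numbers, which is treated as a score. The table names the untreated column 0 h, while the labels describe both dishes as kept for 6 h. Another 2 columns of per-sample values (FPKM) were not used. Counts are written with commas, which were removed; they were recorded under a general unit, and no count model was fitted.

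Totals were 46766416 and 43178462 counts, which give members a counting error between 0.028 and 0.11 on the log2 scale (on either side, from 95% Clopper-Pearson bounds on how a gene's reads divide over the libraries). Reads were scaled by TMM (trimming 30% of ratios and 5% of levels), and log2 CPM took a prior count of 2, with Python 3.11.15, numpy 2.4.6, pandas 2.3.3, scipy 1.17.1, statsmodels 0.14.6 and matplotlib. The scaling, fold changes and counting intervals were checked on simulated counts that held counting error only. Removal of the trend, the comparisons of pairs and of TPM, and the motif search were not checked so. Genes with at least 20 counts over both libraries were tested, and a count of 0 was bounded by 3 counts. GC content and length are medians over protein-coding transcripts of GENCODE release 29 and were known for 90.1% of genes tested and for all 48 members with reads; the trend was fitted by robust regression on genes with at least 200 counts. Shared exons were sought by strand in that annotation, and positions were taken from RefSeq (GRCh38.p14).

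Genes named are all catalytic pair, activator, inhibitor, unread and name-only members, the 2 highest and 2 lowest of every other role and the 3 highest and 3 lowest of each pathway list by the interval bound nearest 0, and all regulators of proteasome genes; TAP1 is also among these. A few genes that this rule or the marker lists hold are not reported here. PSMA4 was compared between TPM and reads after its values were seen. Members and lists were chosen with earlier results of these data known. Other scalings, deposited TPM, prior counts, count minimums, member sets, folds and removal of the trend were tried.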

Additional observations from a re-analysis of the deposited data

Results flagged for a closer look

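Some non-coding rows named after proteasome genes, which no comparison above uses, were higher in the PPMX-T003 library by an interval above 0. They were picked for this, and 21.8% of all genes tested had such an interval. Another such row, PSMA3-AS1, was lower, at -0.23 (-0.36 to -0.10). Of 42 pseudogene rows, 30 had no read and 2 had at least 20 counts; all 4 other non-coding genes had at least 20. The pseudogene PSMC6P1 had 26 reads untreated and 42 treated, a log2 fold change of 0.76 (95% counting interval 0.070 to 1.57), against -0.021 for PSMC6. Reads of PSMC6 and of this near copy cannot be told apart with certainty in the table. The antisense gene PSMG3-AS1 had 210 and 241 reads, a log2 fold change of 0.31 (0.043 to 0.59), beside 0.17 for PSMG3. The library kit keeps strand, but whether the counting used it is not stated, so that reads of PSMG3 and its antisense gene cannot be told apart with certainty.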

How the results depend on the processing

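No paired analysis was possible because the untreated and the PPMX-T003 group hold 1 library each. Medians and summed reads are given by setting where they moved by more than counting error or changed sign. For a median, counting error here means that of the summed reads of its genes. Counts of members were judged by their ratio to the main count, without counting error. Named genes are given mostly by count. With median of ratios scaling, the median was 0.039 over all members and 0.018 for ubiquitin and delivery, and the summed reads gave 0.026. With upper quartile scaling, the medians were 0.061 over all members, 0.060 for core, -0.0085 for regulatory particle, 0.0021 for alpha ring and -0.0115 for non-ATPase genes, 0.0395 for ubiquitin and delivery, and the summed reads gave 0.047. Library size alone moved none of these values or named genes beyond counting error. Prior counts of 0.5 and 5, minimums of 1 and 1000 counts, and leaving out PSMC3IP and PSME3IP1 were run for the medians over all members and the 4 groups and for the counts past 1.1-fold. They moved no median beyond counting error; without PSMC3IP and PSME3IP1 the medians were 0.0448 over all members and 0.0318 for activator and assembly genes, and 5 members in place of 6 were past 1.1-fold higher. On the deposited TPM, the medians were -0.0012 over all members, -0.0076 for core, 0.0935 for immunoproteasome, -0.0107 for regulatory particle, 0.0093 for activator and assembly and -0.0078 for constitutive catalytic genes. They were -0.0665 for alpha ring, 0.0189 for non-catalytic beta, 0.0229 for ATPase, -0.0811 for non-ATPase, -0.1375 for regulatory particle chaperone and -0.0257 for activator genes, and -0.0597 for proteasome partners, -0.0181 for regulators, -0.0155 for ubiquitin and delivery and -0.1069 for peptide supply. There 2 members were past 1.1-fold higher and 6 lower, the summed level gave -0.0056, PSMB4 -0.0024 and THOP1 -0.0158, and the immunoproteasome share of the catalytic pairs was 64.3% untreated and 65.3% treated (79.4% and 78.8% for PSMB8, 67.0% and 68.9% for PSMB9). With the trend with GC content and length removed, the medians were 0.022 over all members, 0.0245 for core, 0.021 for immunoproteasome, 0.0091 for regulatory particle 0.039 for alpha ring, 0.0478 for non-catalytic beta, 0.0082 for constitutive catalytic, 0.0242 for ATPase and -0.0069 for activator genes, 0.018 for proteasome partners, -0.0322 for regulators and -0.0086 for ubiquitin and delivery. There 2 members were past 1.1-fold higher and 0 lower, the summed reads gave 0.026, and ADRM1 lay at -0.036, TAPBP at -0.074 and THOP1 at -0.0405. The difference of PSMB10 from PSMB7, examined under this setting after seeing the data, was 0.0133 there, 0.0525 with the longest transcripts and 0.1161 on the TPM; those of the other 2 catalytic pairs moved by less than counting error with either fit and on the TPM. With only the longest transcript per gene in that fit, a setting chosen after seeing the data, the medians were 0.0018 over all members, -0.018 for core, -0.014 for immunoproteasome, -0.0083 for regulatory particle and 0.019 for activator and assembly genes. By role the median was then 0.0136 for alpha ring, -0.019 for non-catalytic beta, -0.0665 for constitutive catalytic, 0.0105 for ATPase and -0.055 for non-ATPase genes. The median was -0.0037 for chaperones of the regulatory particle, 0.0266 for those of the barrel and -0.0696 for activator genes. By list the median was 0.0249 for proteasome partners, -0.000337 for regulators, 0.0153 for ubiquitin and delivery and -0.0492 for peptide supply. Means in place of medians were 0.037 over all members and 0.020 for the regulatory particle. Without the 8 members that share exons on the same strand, the immunoproteasome median was 0.075, that of PSMB8 alone, and 3 members were past 1.1-fold higher. By a threshold of 5% on the fold scale 19 members were higher and 6 lower, by 20% 0 and 0, and 1 was higher with its whole interval past 1.1-fold. The cause of these differences was not tested. Of 68 named genes, 68 moved by less than counting error with each other scaling, 25 on the deposited TPM and 29 with the trend removed; in these last 2 settings 41 and 36 moved by more, and 2 and 3 whose interval did not hold 0 changed sign. The share of genes whose TPM change lay as far below the read change as that of PSMA4 was 0.166% with a minimum of 100 TPM, also chosen after seeing the data.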

Other observations

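Of the other 4 non-coding rows named after members with at least 20 counts, PSMA3-AS1 alone had an interval apart from that of its namesake. PSMA3-AS1 had 1124 reads in the untreated and 883 in the PPMX-T003 library, a log2 fold change of -0.23 (95% counting interval -0.36 to -0.10), while PSMA3 gave -0.024 (-0.074 to 0.027). PSMB8-AS1 gave -0.036 (-0.15 to 0.080), while PSMB8 and PSMB9, which lie beside it, gave 0.075 and 0.17. The pseudogene PSMC1P1 had 234 and 219 reads and gave 0.021 (-0.25 to 0.29), while PSMC1 gave 0.069 (0.018 to 0.12). The antisense gene PSMD6-AS2 had 38 and 34 reads and gave -0.041 (-0.755 to 0.66), while PSMD6 gave -0.022 (-0.079 to 0.035). The intervals of PSMB8-AS1, PSMC1P1 and PSMD6-AS2 hold 0 and overlap those of PSMB8, PSMC1 and PSMD6.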
